A study of Homo sapiens with 4 samples.

Results

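The G1 cyclins, their kinases and the enzymes that act on them were examined as a family of 10 genes, picked by gene symbol from the 26360 genes with an unambiguous symbol in the RNA-seq of BE(2)C cells, and all 10 were listed. BE(2)C is a MYCN-amplified human neuroblastoma cell line. The 2 groups had 2 samples each. The control (Ctrl, labelled wild type) was transfected with a non-targeting siRNA, and the knockdown (MYCN KD) with a single siRNA product directed at MYCN. The sample labels give an siRNA concentration of 80 nM (the methods of the study give a lower final concentration), a transfection of 6 h with Lipofectamine 2000 in the same way in both groups, and RNA extraction on the next day. Transcript levels are given in RPKM (reads per kilobase of gene, scaled to the number of mapped reads of the sample), which allows levels of different genes to be compared per length.

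Entry into S phase is driven by D-type cyclins (CCND1, CCND2 and CCND3), which bind CDK4 or CDK6 and start the phosphorylation of the retinoblastoma protein RB1. E-type cyclins (CCNE1 and CCNE2) then bind CDK2, complete this phosphorylation and fire replication origins, and E2F factors released from RB1 transcribe the genes of S phase. The phosphatase CDC25A removes inhibitory phosphates from CDK2, and SKP2 is the substrate receptor of an SCF ubiquitin ligase that marks the CDK inhibitor p27 (CDKN1B) for degradation. Several of these genes are known targets of MYC proteins, and CCND1 is highly expressed in many neuroblastomas.

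MYCN itself, the target of the siRNA, had 1068 and 1073 RPKM in the Ctrl samples, against 720.2 and 718.0 RPKM after knockdown, 32.8% lower on average. It was thus lower in both samples labelled as knockdown. All 11 adrenergic neuroblastoma markers were above a mean of 1 RPKM, and the leukocyte markers summed to at most 1.80 RPKM in any sample. The sum of the adrenergic markers was 3624 to 3932 RPKM in Ctrl and 5079 to 5501 RPKM in MYCN KD. The sum of 6 epithelial markers (1 above a mean of 1 RPKM, KRT19) was 14.5 to 15.4 RPKM in Ctrl and 27.2 to 28.6 RPKM in MYCN KD, and that of 11 Schwann and mesenchymal markers (5 above it, led by TWIST1) was 63.0 to 66.0 RPKM and 63.4 to 65.3 RPKM. PRRX1, ITGAM and KRT5 of these lists were listed at 0 in every sample, and the part of the marker lists in the changes below was not tested. The total behind a sample, worked out from the steps of the RPKM values, was 29055819 to 34142988. The RPKM derive from counts corrected by the authors. What is called recovered reads below are therefore corrected counts, which may differ from the reads sequenced. In bulk RNA, fewer cells in a cell cycle phase and less RNA per cell cannot be told apart.

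Of the 10 genes, 3 were down-regulated upon MYCN knockdown and 0 were up-regulated at an adjusted p under 0.05 in limma with Benjamini-Hochberg adjustment over 11409 genes with a mean of at least 1 RPKM. The fallen genes were the phosphatase CDC25A, the cyclin CCNE1 and the kinase CDK4. Another 6 genes did not pass the threshold, and CCND2 was below the expression filter and was not tested. The share called lower was 33.3% of the 9 tested members, against 22.8% of all tested genes, and 25.3% of all tested genes were called higher (48.1% in either direction). The median log2 fold change was -0.14 over the 9 members and 0.03 over all tested genes. A share of this size over 9 genes is close to the background. The deviations of the replicates from their group means mirrored each other between the groups (correlation over 11409 genes -0.9845 for samples with the same number and 0.9845 for samples with unlike numbers). After the correction made by the authors, the deviations of the samples were therefore not independent of each other across the groups. In the tested members the gap between replicates on the log2 scale was also of nearly the same size in both groups. Where gaps or SDs are given below for both groups, they are thus not separate measures of spread. The standard errors, intervals and p-values given here assume independence, so they can be too small or too large. The size of this error was not tested.

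**Figure D1:**
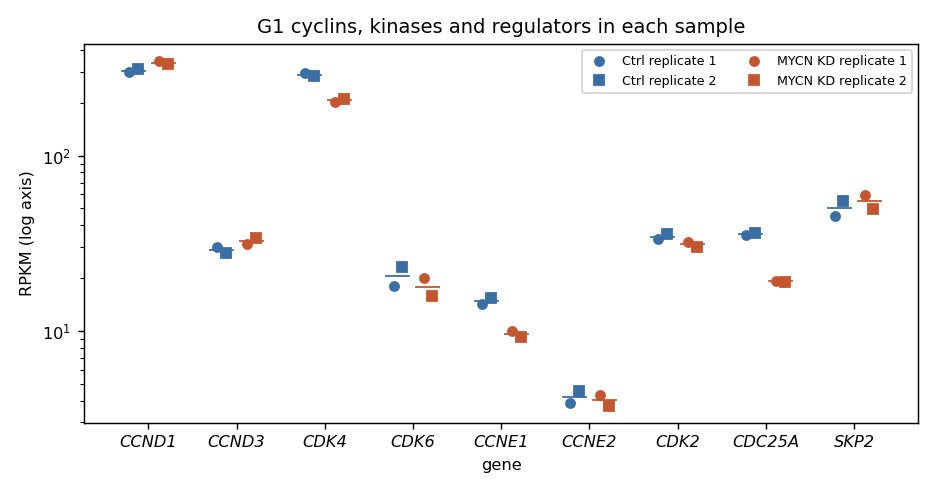
RPKM of the 9 tested genes in each of the 4 samples, on a log axis, with circles for replicate 1, squares for replicate 2 and a line at each group mean (n = 2). CCND1 and CDK4 stand far above the others, and the Ctrl and MYCN KD points lie well apart at CDC25A, CCNE1 and CDK4.

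The 250 bases before the transcription start of the 3 fallen genes are shown because MYCN is known to bind the E-box CACGTG and because E2F factors act on this family. The sequences are from RefSeq on GRCh38.p14, in which the 300-base windows (250 bases before to 50 after the start) lie at chr12:57752261-57752560 on the minus strand for CDK4, chr3:48188368-48188667 on the minus strand for CDC25A and chr19:29811741-29812040 on the plus strand for CCNE1. Capitals mark CACGTG and the E2F forms TTTCGCGC, TTTGGCGC, TTTCCCGC and TTTGCCGC, searched on both strands. CACGCG, a weaker form of the E-box, was also searched and is not marked. None of the matches overlapped another.
CDK4: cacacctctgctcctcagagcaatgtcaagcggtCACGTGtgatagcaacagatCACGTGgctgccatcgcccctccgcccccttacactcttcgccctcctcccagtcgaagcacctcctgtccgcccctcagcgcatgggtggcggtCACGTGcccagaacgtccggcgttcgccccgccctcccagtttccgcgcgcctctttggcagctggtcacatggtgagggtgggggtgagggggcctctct
CDC25A: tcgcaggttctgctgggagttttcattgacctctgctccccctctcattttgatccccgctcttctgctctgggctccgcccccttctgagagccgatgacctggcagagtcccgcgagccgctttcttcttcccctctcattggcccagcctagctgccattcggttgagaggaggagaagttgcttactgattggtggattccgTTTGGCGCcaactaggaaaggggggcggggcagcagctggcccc
CCNE1: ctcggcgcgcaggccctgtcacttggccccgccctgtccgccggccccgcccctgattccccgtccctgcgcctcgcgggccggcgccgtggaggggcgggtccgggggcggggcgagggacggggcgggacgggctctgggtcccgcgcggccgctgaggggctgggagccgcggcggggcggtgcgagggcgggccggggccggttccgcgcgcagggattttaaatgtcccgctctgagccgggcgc

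The CDK4 window held 3 copies of CACGTG, with their first bases at -216, -196 and -101 from the start. At least 1 copy was present in 9.74% of the 12340 windows of tested genes (7.26% of all 35116 windows), and 3 or more copies were present in 0.17% of the windows of tested genes, which is 21 windows. The cut of 3 equals the count in the CDK4 window, so this share is no test of that window. Of the 9 windows matched to members, 2 held CACGTG, 1 of CDK4 and 1 of CDK6, which was not called. The CDC25A window held TTTGGCGC at -44 and no CACGTG, and any of the 4 E2F forms occurred in 5.08% of the windows of tested genes. The CCNE1 window held none of these letters. CCNE1 was also the richest of the 3 in G and C, at 81.2% against 65.6% for CDK4 and 60.0% for CDC25A. Windows were matched for 6 of the 10 genes. Among the others, a CDK6 window held CACGTG at position 31 after the start, and the windows of CCND3 and SKP2 held neither CACGTG nor an E2F form. CACGCG was found at -198 in 1 CCND3 window and in 18.0% of the windows of tested genes. A match is a description of the sequence and does not show binding.

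D-type cyclin transcripts were almost entirely CCND1. This gene, on GRCh37 at chr11:69455924-69469242 with 5 exons, had the highest level of the family, with 298.9 and 310.4 RPKM in the Ctrl samples, against 345.1 and 332.8 RPKM after knockdown. Both knockdown samples lay above both controls, and the mean was 11.3% higher. The log2 fold change on the log2(RPKM + 1) scale was 0.15 (standard error 0.040, 95% interval 0.03 to 0.27), and it missed the threshold (limma adjusted p = 0.0506). The call of CCND1 depends on the setting. The adjusted p from limma was 0.0287 with quantile normalization, where the log2 fold change was 0.24, 0.0425 with samples rescaled to the same total, 0.0474 with limma voom on the recovered reads and 0.0486 among genes with a mean of at least 5 RPKM. It was 0.383 with the replicate block. With any of the 4 samples left out the log2 fold change of CCND1 was 0.13 to 0.18.

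CCND3, the D-type cyclin best known from lymphoid cells, had 30.2 and 27.6 RPKM in the Ctrl samples, against 31.2 and 34.0 RPKM after knockdown. The groups did not overlap, but the gap between the nearest samples of the groups was smaller than the gap between replicates, and the log2 fold change of 0.17 (standard error 0.073) did not pass the threshold (limma adjusted p = 0.145). CCND2 was listed at 0 RPKM in Ctrl replicate 1 and MYCN KD replicate 2, at 0.00959 RPKM in Ctrl replicate 2 and at 0.0158 RPKM in MYCN KD replicate 1. These values stand for 0 to 3 corrected counts on a gene model of 6479 bases, so no fold change is given. Thus, 2 of the 3 D-type cyclins were measured, at very different levels. CCND1 made up 91.3% ± 0.705 (SD, n = 2) of the summed D-type cyclin RPKM in the controls, against 91.2% ± 0.688 (SD, n = 2) after knockdown. This difference was well within the spread between replicates (exact permutation test, two-sided p = 0.667).

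CDK4, the main kinase partner of the D-type cyclins here, is encoded on GRCh37 at chr12:58141510-58149796 on the minus strand with 8 exons. It fell from 295.4 and 283.7 RPKM in Ctrl to 202.5 and 210.9 RPKM in MYCN KD. The knockdown samples lay far under the controls, a mean fall of 28.6%, and the gap between replicates was 0.06 on the log2 scale in each group. The log2 fold change was -0.48 (standard error 0.042, 95% interval -0.61 to -0.36, limma adjusted p = 0.00627). CDK4 was at the 10.7th percentile of change among all tested genes. The values stood on 11779 to 20190 corrected counts per sample. TSPAN31, transcribed from the opposite strand, shares 1369 exonic bases with CDK4 in GENCODE. TSPAN31 stood at 8.26 and 7.82 RPKM in the controls and at 14.0 and 14.7 RPKM after knockdown, and since strand-specific counting is not stated, reads in the shared bases cannot be told apart.

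CDK6, the other kinase of the D-type cyclins, had 18.0 and 23.0 RPKM in the Ctrl samples, against 19.9 and 15.8 RPKM after knockdown. The groups overlapped, and the replicates lay 0.33 apart in Ctrl and 0.32 apart in MYCN KD on the log2 scale, more than the difference between the groups. The log2 fold change was -0.19 (95% interval -0.72 to 0.34, limma adjusted p = 0.429), an interval that includes a fall as large as that of CDK4. The log2 fold change of CDK6 was -0.36 without Ctrl replicate 1 and -0.35 without MYCN KD replicate 1. Without Ctrl replicate 2 or MYCN KD replicate 2 the log2 fold change was -0.02 or -0.03. Because the deviations mirrored each other, leaving out the same-numbered sample of either group gives nearly the same value. Such a pair of values, here and for other genes, is not 2 separate checks. CDK4 made up 93.4% ± 1.23 (SD, n = 2) of the summed CDK4 and CDK6 RPKM in the controls, against 92.0% ± 1.42 (SD, n = 2) after knockdown, a difference within the spread between replicates (exact permutation test, two-sided p = 0.667).

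D-type cyclin transcripts were more abundant relative to their kinases in MYCN KD than in Ctrl. The summed D-type cyclin RPKM was 329.1 and 338.0 in the controls and 376.3 and 366.8 after knockdown. The summed CDK4 and CDK6 RPKM was 313.4 and 306.7 in the controls and 222.4 and 226.6 after knockdown. The ratio of cyclin to kinase RPKM was therefore near 1 in Ctrl (1.05 and 1.10) and higher in both MYCN KD samples (1.69 and 1.62). The mean ratio was 1.08 ± 0.0369 (SD, n = 2) in Ctrl against 1.66 ± 0.0518 (SD, n = 2) in MYCN KD, which is 1.54 times higher. Such a ratio within a sample does not move with the scaling of that sample. With 2 samples against 2, the exact permutation test cannot give a two-sided p under 0.333, and it gave 0.333. This ratio was chosen after the values were seen.

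**Figure D2:**
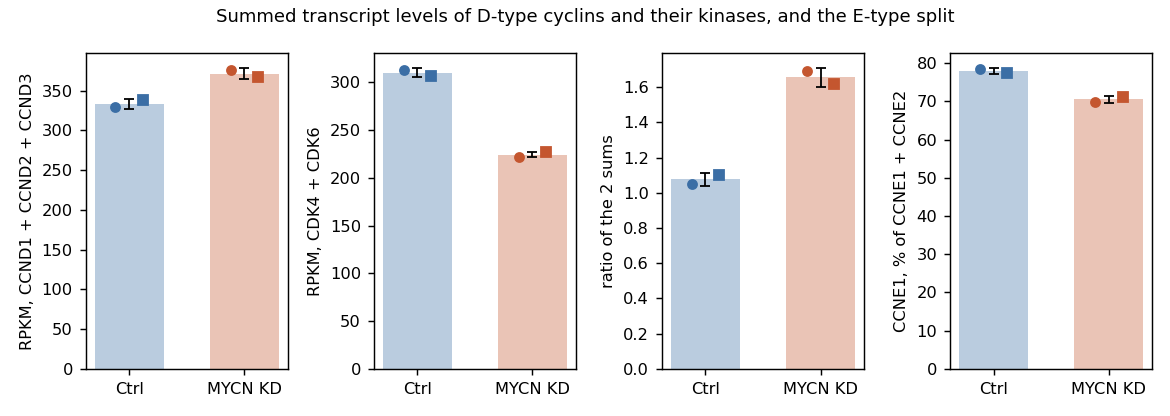
Summed RPKM of the D-type cyclins, summed RPKM of CDK4 and CDK6, the ratio of these sums, and CCNE1 as a percent of CCNE1 and CCNE2, in Ctrl and MYCN KD. Bars are means with SD (n = 2) and points are samples (circle replicate 1, square replicate 2). The cyclin sum is higher and the kinase sum lower in both MYCN KD samples, which takes the ratio from 1.08 to 1.66.

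Of the E-type cyclins, CCNE1 fell and CCNE2 did not pass the test. CCNE1, on GRCh37 at chr19:30302898-30315219 with 12 exons, had 14.2 and 15.4 RPKM in the Ctrl samples, against 10.0 and 9.25 RPKM after knockdown. The knockdown samples lay under the controls by several times the gap between replicates, and the mean was 34.8% lower. The log2 fold change was -0.57 (standard error 0.070, 95% interval -0.78 to -0.36, limma adjusted p = 0.0107). The corrected counts behind CCNE1 were 557 to 961 per sample. CCNE2, the paralog of CCNE1 with the lowest level among the tested members, had 3.89 and 4.52 RPKM in the Ctrl samples, against 4.33 and 3.75 RPKM after knockdown. The groups overlapped and the log2 fold change was -0.05 (95% interval -0.34 to 0.25, limma adjusted p = 0.722).

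The sign of the CCNE2 difference turned to 0.04 without Ctrl replicate 2 or MYCN KD replicate 2, and it was 0.003 with samples rescaled to the same total. CCNE2 shares 1629 exonic bases with INTS8 on the opposite strand in GENCODE, and INTS8 had 5.62 to 6.11 RPKM in all 4 samples, so the low reads of CCNE2 are uncertain. Other tested members also share exonic bases with genes on the opposite strand, among them CDK2 with a long non-coding RNA (ENSG00000258554, 565 bases) and PMEL (89), CCND1 with LTO1 (497), SKP2 with NADK2 (365) and CDK6 with CDK6-AS1 (86). CCNE1 made up 77.9% ± 0.775 (SD, n = 2) of the E-type cyclin RPKM in the controls, against 70.5% ± 0.918 (SD, n = 2) after knockdown, and the groups did not overlap (exact permutation test, two-sided p = 0.333, the smallest this design allows). The split within the E-type cyclins differed by -7.38 percentage points between MYCN KD and Ctrl, and that within the D-type cyclins by -0.0973.

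CDK2, the kinase of the E-type cyclins, had 33.3 and 35.5 RPKM in the Ctrl samples, against 32.1 and 30.2 RPKM after knockdown. Both knockdown samples lay under both controls, with a mean 9.64% lower, but the log2 fold change of -0.14 (standard error 0.057, 95% interval -0.31 to 0.03) did not pass the threshold (limma adjusted p = 0.121). CDK4 was 8.86 and 7.99 times as abundant as CDK2 per length in the controls, and 6.32 and 6.99 times after knockdown. The E-type cyclin sum relative to CDK2 was 0.541 and 0.562 in the controls and 0.448 and 0.431 after knockdown. Both ratios were lower in the 2 knockdown samples than in the 2 controls (exact permutation test, two-sided p = 0.333 each, the smallest this design allows). Neither ratio was among the shares planned beforehand. They hold CDK4 and CCNE1, which were called lower, and so add no separate result.

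CDC25A, the phosphatase that activates CDK2, showed the largest fall of the 9 tested members. It lies on GRCh37 at chr3:48198636-48229907 on the minus strand with 15 exons. It stood at 35.37 and 35.97 RPKM in the controls and at 19.3 and 19.0 RPKM after knockdown, a mean fall of 46.3%, with replicates 0.024 apart in Ctrl and 0.019 apart in MYCN KD on the log2 scale. The log2 fold change was -0.86 (standard error 0.035, 95% interval -0.97 to -0.76, limma adjusted p = 0.00359), at the 2.38th percentile of all tested genes. CDC25A was level with CDK2 in Ctrl, where the values overlapped, and lay well below CDK2 in MYCN KD. The tested genes outside the family with the most similar values over the 4 samples were EBNA1BP2, FNDC8 and NAF1, at Euclidean distances of 0.0112, 0.0124 and 0.0133 between deviations of log2(RPKM + 1) from the mean of each gene, against a median distance of 0.900 over all tested genes. Their log2 fold changes were -0.86, -0.86 and -0.85.

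SKP2 had 45.4 and 55.1 RPKM in the Ctrl samples, against 59.7 and 49.6 RPKM after knockdown. The groups overlapped, with replicates 0.27 apart in Ctrl and 0.26 apart in MYCN KD on the log2 scale, and the log2 fold change of 0.12 (95% interval -0.31 to 0.55) did not pass the threshold (limma adjusted p = 0.537). It was -0.02 without Ctrl replicate 1 and -0.01 without MYCN KD replicate 1. At this replicate spread the interval leaves room for a change of SKP2 in either direction. CCND3 had the most positive change of the family although it did not pass the threshold. The genes with the most similar deviations from their own mean were LLGL1, RRNAD1 and ACOT8, at distances of 0.00408, 0.00678 and 0.00784 from CCND3 against a median of 0.366.

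**Figure D3:**
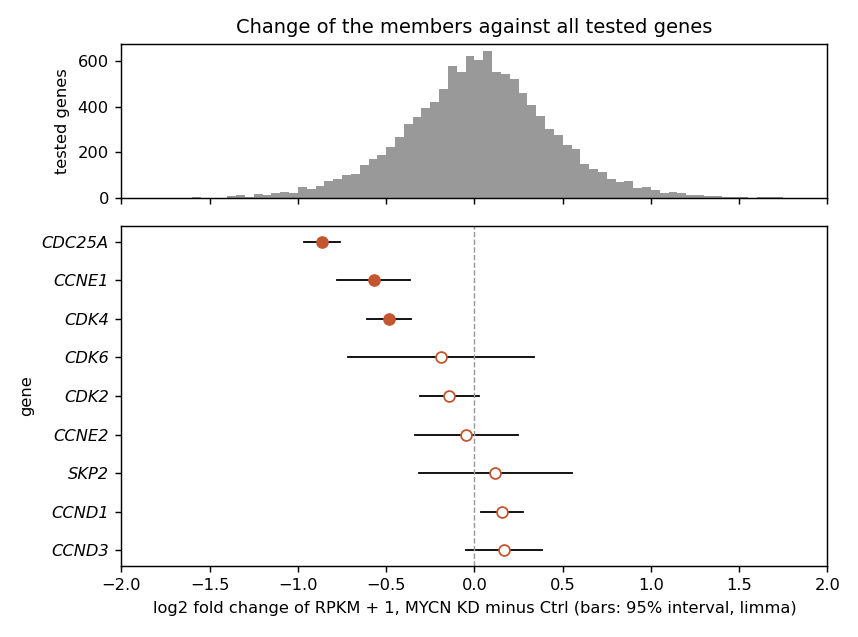
Top, the number of tested genes by log2 fold change in bins of 0.05, with the 8 genes beyond 2 in either direction left out. Bottom, the log2 fold change of the 9 tested members (MYCN KD minus Ctrl) with 95% intervals from limma, filled where the adjusted p was under 0.05. The filled points are CDC25A (-0.86), CCNE1 (-0.57) and CDK4 (-0.48), and the intervals of CDK6 and SKP2 are the widest.

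In Ctrl the order of the levels was CCND1, CDK4, SKP2, CDC25A, CDK2, CCND3, CDK6, CCNE1, CCNE2 and CCND2. Of the neighbours in this order, CDC25A and CDK2 had overlapping values. In MYCN KD the order was CCND1, CDK4, SKP2, CCND3, CDK2, CDC25A, CDK6, CCNE1, CCNE2 and CCND2, with overlapping values for CCND3 and CDK2 and for CDC25A and CDK6. CCND1 and CDK4 were at the 98.5th and 97.9th percentile of level among all tested genes and CCNE2 was at the 26.3rd, so that the family spans most of the range of expression. Of the 9 tested members, 4 had both MYCN KD values below both Ctrl values (44.4%, against 35.8% of all tested genes) and 2 had both above (22.2%, against 40.4%).

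Genes that act on the G1 kinases or downstream of them were examined by 9 lists with 108 genes in all. Among the CDK inhibitors, 4 of 6 tested genes were higher (66.7%, against 25.3% of all tested genes) and 1 was lower (16.7%, against 22.8%). CDKN1A, which encodes p21 and inhibits CDK2, rose from 7.08 and 7.63 RPKM in Ctrl to 23.1 and 21.4 RPKM in MYCN KD (log2 fold change 1.48, standard error 0.064, limma adjusted p = 0.00359). The INK4 inhibitors CDKN2B (0.40), CDKN2C (0.25, limma adjusted p = 0.04996) and CDKN2D (1.25), which bind CDK4 and CDK6, were also higher. CDKN2B had a low level, under a mean of 5 RPKM, and the size of its change depended on the setting. It was 0.65 with a pseudocount of 0.1 and 0.69 with limma voom. The call of CDKN2C was lost with a pseudocount of 0.1, no filter, no mean-variance trend or limma voom (limma adjusted p = 0.0502 to 0.0722). Its log2 fold change was 0.19 without Ctrl replicate 2, 0.20 without MYCN KD replicate 2 and 0.30 without replicate 1 of either group. CDKN2A, which encodes p16 and ARF, fell from 22.7 and 21.3 RPKM to 14.4 and 15.4 RPKM (-0.53, limma adjusted p = 0.00869). CDKN1B, which encodes the SKP2 substrate p27, had 37.8 and 41.3 RPKM in the Ctrl samples, against 39.7 and 36.5 RPKM after knockdown and did not pass the threshold (-0.06, limma adjusted p = 0.562). CDKN1C was below the filter.

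Of the pocket proteins, 0 of 3 passed the threshold in either direction in limma with 2 samples a group, against 48.1% of all tested genes. A list of 3 genes is too small to set against that share. RB1, the main substrate of the G1 kinases, had 15.5 and 19.4 RPKM in the Ctrl samples, against 28.2 and 22.7 RPKM after knockdown (log2 fold change 0.52, limma adjusted p = 0.0787, unadjusted p = 0.0438). The unadjusted p of the other 2 was not under 0.05. With any of the 4 samples left out the log2 fold change of RB1 was 0.36 to 0.67. Among the E2F and DP factors, which RB1 binds, 7 of 10 genes were lower (70.0%, against 22.8% of all tested genes) and 0 were higher (against 25.3%), with a median log2 fold change of -0.49. E2F1 fell from 104.4 and 98.6 RPKM to 82.0 and 86.7 RPKM (-0.26, limma adjusted p = 0.0277), a call that was lost with the replicate block. Its log2 fold change was -0.22 without replicate 1 of either group and -0.30 without replicate 2 of either group. The largest fall was that of E2F5 (-1.32, limma adjusted p = 0.00646), from 8.36 and 10.0 RPKM to 3.34 and 2.82 RPKM. The log2 fold change of E2F5 was -1.55 with a pseudocount of 0.1 and -1.57 with limma voom.

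Of 30 E2F target genes of the G1/S transition, 23 were lower (76.7%, against 22.8% of all tested genes) and 0 were higher (against 25.3%), with a median log2 fold change of -0.51 against 0.03 over all tested genes. PCNA, the sliding clamp of DNA polymerases, had the largest fall, from 141.6 and 204.6 RPKM to 89.1 and 62.6 RPKM (-1.18, standard error 0.28, limma adjusted p = 0.0400), with a wide gap between replicates in each group. It was not called with no filter (limma adjusted p = 0.0652) or with samples rescaled to the same total (0.0537). The smallest fall among the called genes was that of GINS2, a subunit of the replicative helicase complex (-0.35, limma adjusted p = 0.00656). The list of S, G2 and M cyclins with CDK1 had 3 of 4 tested genes lower (75.0%, against 22.8% of all tested genes) and 0 higher (against 25.3%), with a median log2 fold change of -0.33. These were CCNA2 (54.5 and 61.6 RPKM in Ctrl, 41.1 and 36.5 RPKM in MYCN KD, log2 fold change -0.57), the cyclin that follows cyclin E on CDK2, and the mitotic cyclins CCNB1 (-0.39) and CCNB2 (-0.20). The call of CCNB2 was lost with the replicate block, with no filter, and with samples rescaled to the same total (-0.14) or quantile normalization (-0.13). With any of the 4 samples left out its log2 fold change was -0.24 to -0.17. CDK1, the mitotic kinase, had 23.7 and 27.4 RPKM in the Ctrl samples, against 22.7 and 19.8 RPKM after knockdown and did not pass the threshold (-0.26, limma adjusted p = 0.137).

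Of the genes of CDK activation, 2 of 6 were lower (33.3%, close to the 22.8% of all tested genes) and 0 were higher (against 25.3%). CCNH, the cyclin of the CDK-activating kinase, fell from 22.9 and 22.3 RPKM to 14.1 and 14.5 RPKM (-0.63, limma adjusted p = 0.00435). CDC37, the chaperone cofactor that loads CDK4 onto HSP90, had a log2 fold change of -0.27, which was not called with the replicate block. It was -0.23 without replicate 1 of either group and -0.31 without replicate 2 of either group. The other CDC25 phosphatases in this list were not called, as the log2 fold change was 0.05 for CDC25B (limma adjusted p = 0.606) and -0.05 for CDC25C (limma adjusted p = 0.473), although the difference between the 3 was not tested. WEE1 and PKMYT1, kinases that place the phosphates CDC25 proteins remove, gave 0 calls in limma in either direction, with 0 unadjusted p under 0.05. Of all tested genes 48.1% were called, and a list of 2 genes is too small to set against that share. The log2 fold change of PKMYT1 was -0.34 without replicate 2 of either group and -0.14 without replicate 1 of either group, against -0.24 with all samples.

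The ubiquitin ligase parts and cofactors had 8 of 18 genes lower (44.4%, against 22.8% of all tested genes) and 2 higher (11.1%, against 25.3%). CKS1B, the cofactor through which SKP2 recognises p27, fell from 109.5 and 101.6 RPKM to 71.0 and 76.4 RPKM (-0.51, limma adjusted p = 0.0109). SKP1, the adaptor that holds SKP2 in the ligase, was lower (-0.32), as was FBXW7 (-0.55), the substrate receptor for cyclin E. The largest fall was that of USP2 (-0.99, limma adjusted p = 0.00359), a deubiquitinase with 2.99 and 3.05 RPKM in the Ctrl samples, against 1.03 and 1.02 RPKM after knockdown, and the larger of the 2 rises was that of the ring finger subunit RBX1 (0.24, limma adjusted p = 0.0123). The call of RBX1 was lost with the replicate block, and its log2 fold change was 0.23 to 0.25 with any of the 4 samples left out. The transcriptional and atypical cyclins and CDKs, which do not drive the G1/S transition, had 4 of 24 tested genes lower (16.7%) and 5 higher (20.8%), shares near those of all tested genes (22.8% and 25.3%), with a median log2 fold change of 0.13. CDK12 had the largest fall there (-0.36, limma adjusted p = 0.0223) and CDK19 the largest rise (0.81, limma adjusted p = 0.0130). USP2, FBXW7 and CDK19 were under a mean of 5 RPKM, and the size of their changes depended on the setting. With a pseudocount of 0.1 the log2 fold changes were -1.47, -0.72 and 1.03. With limma voom they were -1.55, -0.75 and 1.07. The call of CDK12 was lost with the replicate block and with samples rescaled to the same total (-0.30, limma adjusted p = 0.0508). Its log2 fold change was -0.31 without replicate 2 of either group and -0.41 without replicate 1 of either group.

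**Figure D4:**
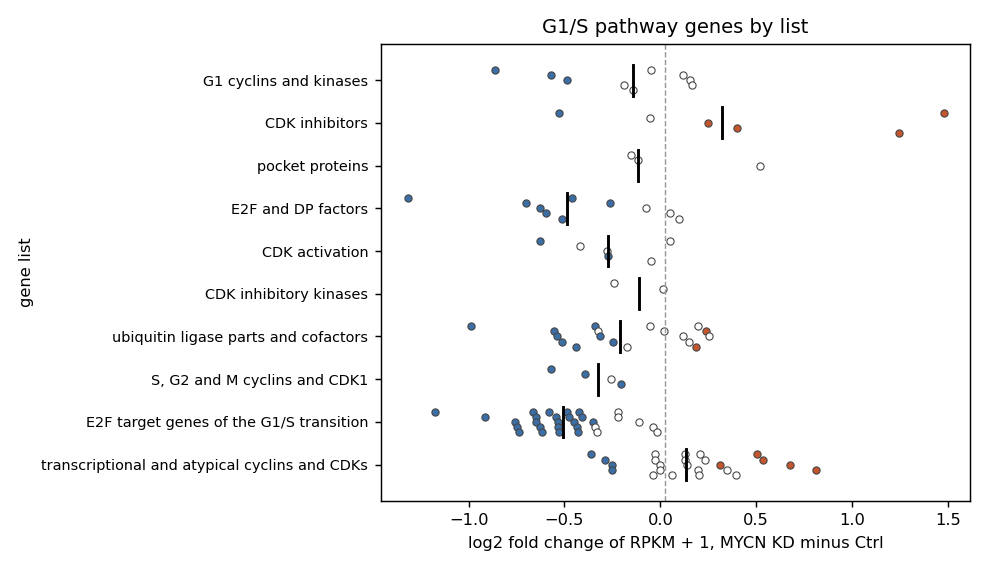
Log2 fold change (MYCN KD minus Ctrl) of each tested gene of the G1 family and of 9 lists of related genes, with calls at an adjusted p under 0.05 filled (blue lower, orange higher), a bar at the median of each list and a dashed line at the median of all tested genes. The E2F targets and E2F factors lie mostly below 0, with medians of -0.51 and -0.49, and 4 CDK inhibitors lie above 0.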

How the data were processed

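The RNA-seq data comprised 4 BE(2)C samples, grouped by their titles into Ctrl (2) and MYCN KD (2). According to the methods of the study and the processing notes of the submitters, reads were mapped to hg19 with HISAT2 2.1.0, counted on RefSeq genes with featureCounts, modelled with DESeq2 and corrected with RUVSeq. What the authors deposited is RPKM, derived from the corrected counts. How many factors were removed, and whether strand was used, is not given in the sources used here. Values are therefore already adjusted, which can alter the spread between replicates. The deviations of the replicates from their group means were not independent across the groups.

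The total of each sample was recovered from small RNA genes of known length, and all 19908 genes above 0 then gave whole counts in every sample (within 0.02). These recovered reads are counts after the correction by the authors. Counting intervals would cover counting error only. The 4 rows with a repeated symbol were left out. Log2(RPKM + 1) was fitted with limma 3.58.1 in R 4.3.3 (lmFit, eBayes with a trend) for 11409 genes with a mean of at least 1 RPKM, with Benjamini-Hochberg adjustment, a threshold of 0.05 and no block. The fit was tested on simulated data with samples drawn independently of each other. That test cannot show how the p-values behave where replicates mirror each other, as they do here. Nothing says that the samples came from separate cultures beyond the study calling them biological replicates, and p-values measure the spread between these samples. Shares and ratios were compared by exact permutation tests over samples. Alternatives were other pseudocounts, filters, scalings and variance models, the replicate block and each sample left out, and limma voom on the recovered reads and a crossed block were added after seeing the data. Tables and figures were made with scipy 1.17.1, pandas 2.3.3, numpy 2.4.6 and matplotlib 3.10.9 in Python 3.11.15. Positions of genes were taken from GENCODE release 44 lifted to GRCh37 (hg19).

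The members, lists and tests were chosen with earlier results of these data known. Genes were named by a rule: all 10 members, MYCN, the regulators CDKN1A, CDKN1B, CDKN2A, CKS1B, RB1, E2F1, CDK1 and CCNA2, the lowest and highest past the threshold in each list, and the 3 genes closest in deviations from their own mean to the members with the largest fall and largest rise. Other genes were named after their values were seen.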

Additional observations from a re-analysis of the deposited data

How the results depend on the processing

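CDC25A, CCNE1, CDK4 and MYCN kept their direction under each of the 13 alternatives run for single genes, and their call under those with all samples in. CCND3 and CDK2 kept their direction, and stayed short of the threshold under those with all samples in. Most of these alternatives could not turn a direction. The filters, the fit without a trend and the replicate block leave a fold change as it is. The groups of these genes did not overlap, so other pseudocounts or leaving out a sample could not turn it either. Only rescaling to the same total, quantile normalization and limma voom could have done so. CCND1 passed the threshold at a log2 fold change of 0.24 with quantile normalization, 0.21 with samples rescaled to the same total, 0.154 among genes with a mean of at least 5 RPKM and 0.156 with limma voom on the recovered reads. So 1 member was called higher in each of these 4 fits. Of all 11409 tested genes, 2898 (quantile normalization), 3278 (same total) and 2918 (limma voom) were called higher, and 1867 of 7857 with a mean of at least 5 RPKM. With a sample left out, where the lone sample of a group is assumed to vary like the other group, log2 fold changes ran from -0.36 to -0.022 for CDK6, from -0.13 to 0.041 for CCNE2 and from -0.017 to 0.26 for SKP2. Leaving out the same-numbered sample of either group gave nearly the same value, as the deviations mirrored each other. CCNE2 also changed sign with samples rescaled to the same total (0.0025). CCND2, at 0 to 3 corrected counts a sample, stayed too low for any fold change.

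A replicate block on the sample numbers cannot change a fold change in this balanced design (-0.86 for CDC25A, -0.57 for CCNE1, -0.48 for CDK4 and -0.57 for MYCN), and it changed no member's call. Deviations of same-numbered samples from their group means had a correlation of -0.9845 over 11409 genes, and those of Ctrl replicate 1 and MYCN KD replicate 2 one of 0.9845. The deviations thus depend on each other across the groups, but not as the numbers would pair them. In 9 of 9 tested members the replicate that was higher carried opposite numbers in Ctrl and MYCN KD. A crossed replicate block, chosen after seeing the data, called 6 members lower and 3 higher, and 5261 of all genes lower and 5909 higher.

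All tested genes gave 2598 lower and 2889 higher calls, and 1867 higher calls with a mean of at least 5 RPKM, where fewer genes were tested. The replicate block gave 1850 lower and 2075 higher calls. Among the lists, the block called 1 pocket protein higher, 5 ubiquitin ligase genes lower and 0 higher, and 0 transcriptional and atypical genes lower. The block did not call CDKN2C, CCNB2, E2F1, CDC37, SKP1, RBX1 or CDK12. Rescaling to the same total moved the median log2 fold change of all 11409 tested genes up by 0.052, and called 2121 of them lower and 3278 higher. It called 4 of 18 ubiquitin ligase genes higher, and 2 of 24 transcriptional and atypical genes lower and 8 higher. A mean of at least 5 RPKM left 2 of the latter lower and 2 higher (2105 and 1867 of 7857 tested genes). No filter added 1 higher call among the S, G2 and M cyclins (3383 of 19904 tested genes were higher). With a sample left out, a fit has 1 residual degree of freedom, and its standard errors rest largely on a variance shared across genes. That of CCND1 was 0.112 without Ctrl replicate 1, against 0.040 with all samples. Calls gained or lost in such fits also reflect this, and are not given. The difference in the CCNE1 share was -6.45 percentage points with quantile normalization, against -7.38. For all of these, the cause was not tested.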
